A study of Saccharomyces cerevisiae with 2 samples.

Results

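The mitotic exit network of budding yeast, *Saccharomyces cerevisiae*, was followed here through 10 genes: *DBF2*, *DBF20*, *MOB1*, *CDC15*, *TEM1*, *BFA1*, *BUB2*, *LTE1*, *CDC5* and *CDC14*. They were taken by gene symbol from 5094 genes with a named probe on the array. The set was chosen by the ratio of *DBF2* in these same arrays, the highest of the screen, so the values of all members are given as a description, with no test. Of the 10 genes, 7 had a value on both arrays, and *CDC15*, *TEM1* and *CDC5* had probes but no listed value on either.

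The data came from a genetic interaction mapping (GIM) screen, in which a pool of barcoded mutant strains is crossed with a query mutant and the abundance of each double mutant is read from its barcode. The pool with the query deletion was compared with a reference GIM pool, and both were mixes of haploid strains derived from BY4742/BY4741. The labels disagree on the deleted query gene: *PIH1* in the titles, *RSA1* in the descriptions and source names. Per the protocols, DAmP strains, in which the mRNA of a gene is destabilised, were crossed, and after selection the haploid pool was kept for 18 generations in both G418 and nourseothricin. That text covers the pool as a whole and does not give the selection of the reference pool separately. In each of 2 experiments, barcodes amplified with Cy3 primers from the query pool and Cy5 primers from the reference pool were hybridised together to an Agilent array. Although the experiments are called independent, the labels name no separate cultures, and the differences between arrays may be partly technical. Probes name only a gene, so a DAmP allele of it cannot be told apart from another allele.

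The mitotic exit network is the signalling chain that ends mitosis and starts cytokinesis in budding yeast. At the spindle pole body the small GTPase Tem1 is held inactive by the GTPase-activating pair Bfa1 and Bub2 until the spindle is positioned in the bud. The Polo kinase Cdc5 inhibits this pair and Lte1 favours activation from the bud side. Active Tem1 recruits the kinase Cdc15, which activates the kinase Dbf2, or its paralog Dbf20, bound to Mob1. This complex drives release of the phosphatase Cdc14 from the nucleolus, and Cdc14 reverses phosphorylation by the mitotic cyclin-dependent kinase. Deletions of *DBF2*, *DBF20*, *BFA1*, *BUB2* and *LTE1* are viable under usual conditions, whereas *TEM1*, *CDC15*, *MOB1*, *CDC5* and *CDC14* are essential.

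Values are log2 ratios of the 2 channels, centred on the median of each array and averaged over the probes of a gene. The direction is likely query pool over reference pool, so that a positive value means a mutant more abundant in the query pool. Its basis is the 34 measured genes within 50 kb of *PIH1*, whose double mutants should be rare because they are linked to the query deletion: their median ratio was -1.16 on array 1 and -0.83 on array 2, and 30 of the 34 were negative. Around *RSA1* the median of 42 genes was 0.03 on array 1 and 0.00 on array 2, and 18 of them were negative. The reading of direction thus takes *PIH1* as the query gene, as in the titles, and which gene was deleted was not tested. *PIH1* itself had a mean of 1.01, against the pattern of its neighbours. The log base is not given in the sources used here and was read as log2. Values were present for 4370 genes on array 1 and 4224 on array 2, the median absolute deviation over probes was 0.236 on array 1 and 0.427 on array 2, and only 2 arrays limit the precision of every value. All genes tested are the 4048 with a value on both arrays that lie over 100 kb from *PIH1* and *RSA1*. All 7 measured members are among them.

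Among the measured members, *DBF2* alone had a high ratio on both arrays, and its partner, its paralog, the inhibitory pair and the output phosphatase lay slightly below 0. *DBF2* stood at 6.15 ± 3.40 (mean ± SD over 2 arrays, here and below). *DBF20*, *MOB1*, *BFA1*, *BUB2* and *CDC14* were negative on both arrays, with means from -0.34 to -0.12. *LTE1* was negative on array 1 and positive on array 2.

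**Figure D1:**
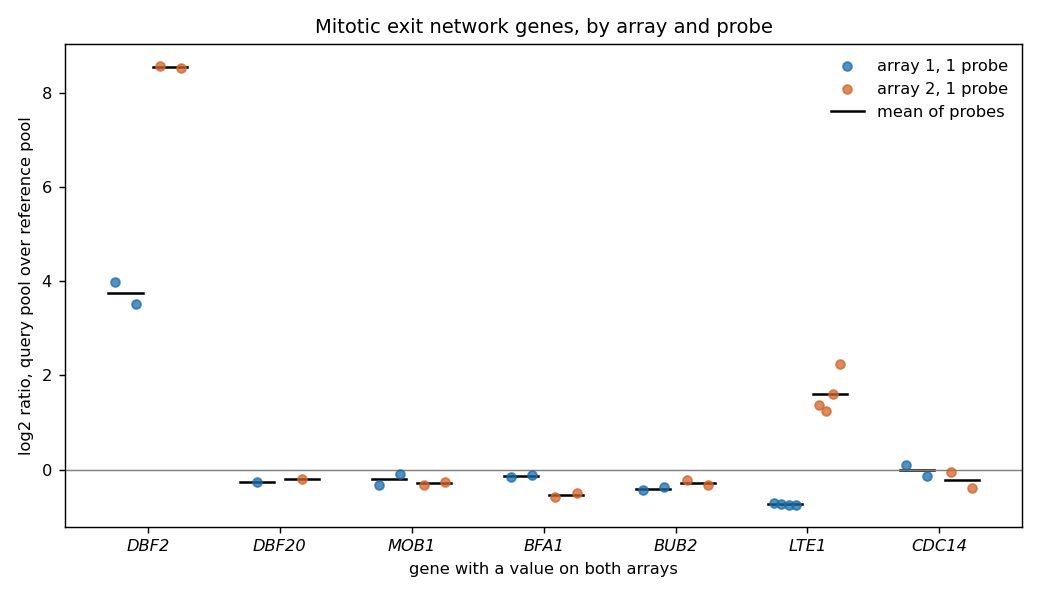
Log2 ratio (likely query pool over reference pool) for the 7 genes with a value on both arrays. Each point is a probe (array 1 blue, array 2 orange) and each black bar the mean of the probes of a gene on an array. *DBF2* reached 3.75 on array 1 and 8.55 on array 2, *LTE1* averaged -0.74 on array 1 and 1.61 on array 2, and the other 5 genes had averages from -0.55 to -0.02.

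*DBF2* (YGR092W, chromosome VII) encodes the kinase that, with Mob1, carries the signal of the network to Cdc14. Its 2 probes read 3.98 and 3.53 on array 1, and 8.58 and 8.53 on array 2. All 4 readings were high, and the probes of an array differed by 0.45 on array 1 and by 0.04 on array 2. Over all genes with exactly 2 valued probes, the median difference between probes was 0.15 on array 1 (2713 genes) and 0.28 on array 2 (2536 genes).

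Averaged over its probes, *DBF2* stood at 3.75 on array 1, or 13.5-fold, and at 8.55 on array 2, or 376-fold, if the values are log2. These 2 values differ by 4.80 log2 units, so the size of the excess is poorly set while its sign was the same on both arrays. High genes varied more in general: the median SD was 1.56 for 169 genes averaging at least 2, against 0.18 for genes within 0.5 of 0. The SD of *DBF2*, 3.40, was larger still. Array 2 had the wider scale (median absolute deviation 0.427, against 0.236 on array 1), and its share in these SDs was not tested. In units of the median absolute deviation of its array, *DBF2* stood at 15.9 on array 1 and 20.0 on array 2, closer together than the log2 values.

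By mean, *DBF2* ranked first of 4048 genes in the likely direction, which is the value that chose it. If the ratio ran the other way, *DBF2* would be the lowest gene, at -6.15, and every sign given here would turn. It ranked first on array 1 and second on array 2, where *LGE1* was higher. *LGE1* was also the next gene by mean, at 5.97 ± 4.14 against 6.15 ± 3.40 for *DBF2*, a gap far smaller than the spread between the arrays of either gene.

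The 5 genes closest to *DBF2* by Euclidean distance over the values of the 2 arrays were *LGE1* (distance 0.79), *RPL42A* (0.82), *RTF1* (1.28), *APQ12* (1.43) and *LSM6* (1.77). None of the measured members of the network was among them. *LGE1* acts in histone H2B ubiquitination, *RPL42A* encodes a large subunit ribosomal protein, *RTF1* a subunit of the Paf1 complex, *APQ12* a nuclear envelope protein and *LSM6* a subunit of the Sm-like rings. Each of the 5 had the larger value on array 2, as *DBF2* did, which follows from choosing them as its nearest genes. With 2 arrays, likeness says only that both values were near those of *DBF2*.

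**Figure D2:**
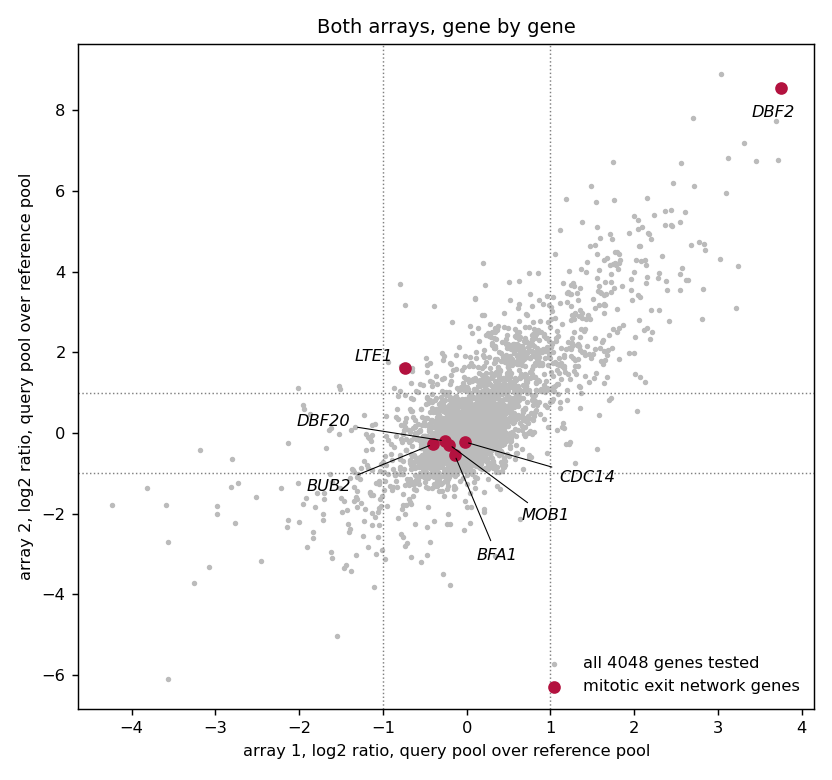
Log2 ratio (likely query pool over reference pool) on array 1 (x axis) against array 2 (y axis), 1 point for each of 4048 genes. Mitotic exit network genes are red, and dotted lines mark -1 and 1. *DBF2* lies at the upper right edge at 3.75 and 8.55, *LTE1* at -0.74 and 1.61 on the upper left edge of the cloud, and the other 5 members lie in the dense centre.

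*DBF20* (YPR111W, chromosome XVI) encodes the paralog of Dbf2, which arose by whole-genome duplication and shares its role in mitotic exit. Only 1 of its 2 probes had a value, at -0.26 on array 1 and -0.20 on array 2 (-0.23 ± 0.04). The paralog was thus close to 0 on both arrays. *DBF2* was higher than *DBF20* by 4.01 on array 1 and by 8.75 on array 2. As *DBF2* was chosen as the highest gene by mean, the direction of this gap was fixed by the choice.

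*MOB1* (YIL106W, chromosome IX) encodes the activating partner of both kinases. Its 2 probes read -0.33 and -0.09 on array 1, and -0.33 and -0.26 on array 2, giving -0.25 ± 0.06. The strain of the gene for the binding partner of Dbf2 therefore did not share its high ratio. *MOB1* is essential and *DBF2* is not, so these strains may carry different kinds of allele, which the probes do not tell. *DBF2*, chosen as the highest gene by mean, was higher than *MOB1* by 3.96 on array 1 and by 8.84 on array 2.

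Upstream, the genes of the inhibitory pair were also slightly negative. *BFA1* (YJR053W, chromosome X), which encodes the regulatory part of the Tem1 inhibitor, stood at -0.14 on array 1 and -0.55 on array 2 (-0.34 ± 0.28). *BUB2* (YMR055C, chromosome XIII), which encodes the catalytic part, stood at -0.40 on array 1 and -0.28 on array 2 (-0.34 ± 0.09). Their means were nearly equal, and the arrays placed them in opposite order, *BUB2* being the lower on array 1 and *BFA1* on array 2. All 8 probe readings of the pair were negative.

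*LTE1* (YAL024C, chromosome I) encodes the bud-cortex protein that keeps Bfa1 and Bub2 from acting in the bud and is most needed in the cold. Its 4 probes read between -0.75 and -0.70 on array 1, and between 1.24 and 2.23 on array 2. Within each array the probes had the same sign, so the disagreement lies between the arrays and not among the probes. The gene averaged -0.74 on array 1 and 1.61 on array 2 (0.44 ± 1.66), and no direction can be given for it.

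Opposite signs were common among all genes tested (1272 of 4048, 31.4%), mostly with small values. A gap between the arrays as large as that of *LTE1*, 2.34 log2 units, was found in 115 genes (2.84%), *LTE1* included, and in 15 genes with opposite signs, 13 of them positive on array 2.

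*CDC14* (YFR028C, chromosome VI), the phosphatase gene at the end of the chain, was the member closest to 0. Its 2 probes read 0.10 and -0.14 on array 1, and -0.05 and -0.40 on array 2, with a mean of -0.12 ± 0.15. Its probes had different signs on array 1, and its value lay within its spread of 0.

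The remaining 3 members could not be described. *CDC15*, the kinase gene between Tem1 and Dbf2, had 2 probes, and *TEM1* and *CDC5* had 1 probe each, all with no listed value. Among all genes probed, 696 of 5094 (13.7%) had no value on either array. What led to a missing value was not tested.

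Read as a group, 1 of the 7 measured members, *DBF2*, was at or above 1 on both arrays, against 6.4% of all genes tested, and 0 were at or below -1 on both, against 2.03%. *DBF2* was also the 1 member positive on both arrays, against 34.7% of all genes, and 5 were negative on both, against 33.9%. Since the members were picked for *DBF2*, nothing is read from these counts. The median of the 7 means was -0.23, against -0.01 over all genes. The 5 members that were negative on both arrays were ahead of 15.5% to 35.6% of all genes by mean, and all of them but *CDC14* lay below the lower quartile of all genes (-0.23). Their SD between arrays was 0.04 to 0.28, around the median of 0.18 for genes within 0.5 of 0.

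By limma, fitted across all genes with Benjamini-Hochberg adjustment, 0 of the 4048 genes tested were called (0%). The smallest adjusted p of any gene was 0.227, and 678 genes (16.7%) had an unadjusted p under 0.05, 477 higher and 201 lower. Once both arrays were given the same median absolute deviation (MAD scaling below), 456 genes (11.3%) were called, 363 higher (8.97%) and 93 lower (2.3%). Quantile normalization gave 434 calls (10.7%), 359 higher (8.87%) and 75 lower (1.85%). No p is given for a member.

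Genes that work with the network were described through 6 lists, with 93 genes of which 63 were tested. The lists were drawn up by known function, but with earlier results of these data known, and 1 gene, *ELM1*, is on 2 of them. Of these 63, 2 were at or above 1 on both arrays (*CDH1* and *SIC1*), against 6.4% of all genes tested. Another 2 were at or below -1 on both (*CLB2* and *BNI1*), against 2.03%, and the median was -0.08. None passed limma as centred, against 0% of all genes. An unadjusted p under 0.05 was found for 18, 8 higher and 10 lower, against 16.7% of all genes (477 higher and 201 lower). After MAD scaling 3 passed as higher and 6 as lower, against 8.97% and 2.3% of all genes. After quantile normalization 3 passed as higher and 0 as lower, against 8.87% and 1.85%.

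**Figure D3:**
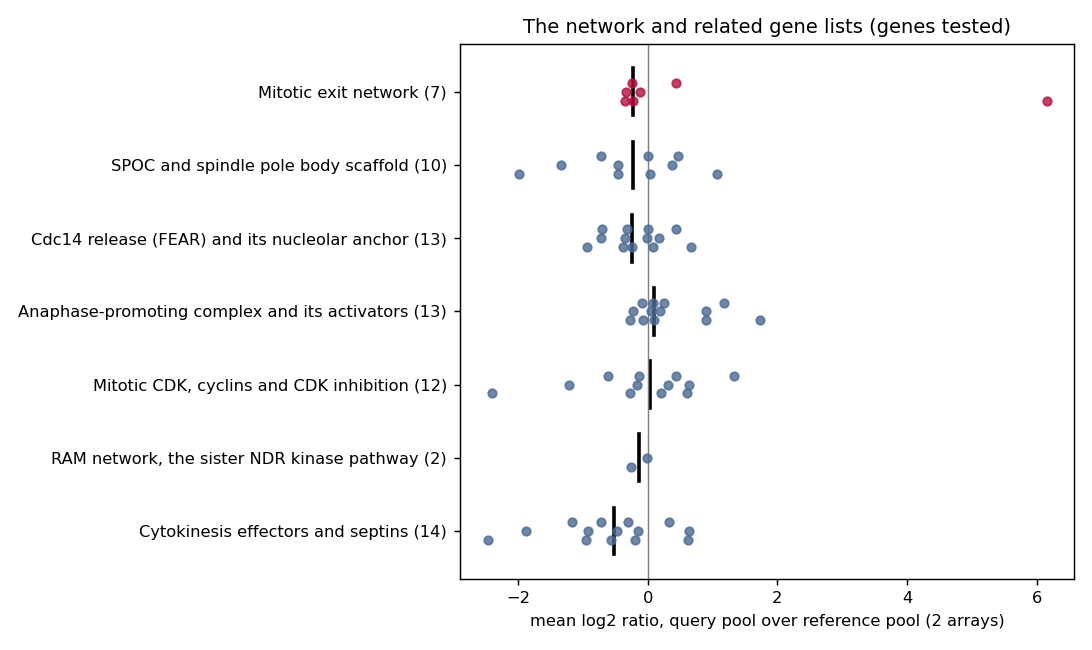
Mean log2 ratio over 2 arrays (likely query pool over reference pool) for each tested gene of the network (red) and of 6 related lists (blue), with the number of genes in brackets and a black bar at each median. *DBF2*, at 6.15, was chosen as the highest gene of the screen and so stands above every gene of the related lists. The highest of these is *CDH1* at 1.74 and the lowest *BNI1* at -2.47.

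The closest downstream step, control of the mitotic cyclin-dependent kinase, held both a high and a low gene. *SIC1*, which encodes the inhibitor of Clb-bound kinase that Cdc14 stabilises, stood at 1.17 on array 1 and 1.51 on array 2 (1.34 ± 0.24). *CLB2*, the main mitotic cyclin gene, stood at -1.47 on array 1 and -3.35 on array 2 (-2.41 ± 1.33). Both genes thus kept their sign on both arrays, and both were called after MAD scaling, but only *SIC1* after quantile normalization.

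Other genes of that list were nearer to 0. *CKS1*, of the kinase subunit, stood at 0.64 ± 0.41 and the cyclin gene *CLB4* at 0.61 ± 0.27. The cyclin gene *CLB1*, paralog of *CLB2*, stood at -0.61 ± 0.10. *HSL1*, a kinase gene that promotes loss of Swe1, stood at -0.04 on array 1 and -2.40 on array 2, so its mean of -1.22 rests on array 2. The 12 tested genes of the list had a median of 0.04, which was -0.13 without centring.

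In the anaphase-promoting complex list, *CDH1*, the activator gene that Cdc14 turns on at mitotic exit, stood at 2.01 on array 1 and 1.47 on array 2 (1.74 ± 0.38). In the likely direction it was the highest gene of the 6 lists by mean, and with the ratio turned it would be their lowest, at -1.74. The subunit genes *CDC26* (1.17 ± 0.76) and *APC1* (0.90 ± 0.17) were positive on both arrays, and *CDC26* was called after both scalings. *AMA1*, the meiotic activator gene, stood at -0.27 ± 0.02, *ACM1*, an inhibitor of Cdh1, at -0.23 ± 0.08, and the subunit gene *CDC16* at -0.08 ± 0.04. The 13 tested genes had a median of 0.10, with the sign depending on the array (-0.01 on array 1 and 0.18 on array 2) and on centring (-0.06 without it).

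The early-anaphase release of Cdc14 (the FEAR pathway, through separase and PP2A) was represented by 13 tested genes, with a median of -0.24. Of these, 0 were at or above 1 on both arrays (6.4% of all genes), 0 at or below -1 on both (2.03%), and 6 negative on both (33.9%). *ZDS1*, a PP2A regulator gene, stood at -0.93 ± 0.30 and was called lower after MAD scaling but not after quantile normalization. *SLK19*, of a kinetochore and spindle protein, stood at -0.72 ± 0.48, and *PPH21*, a PP2A catalytic subunit gene, at -0.71 ± 0.27. *PDS1*, the securin gene, stood at 0.43 ± 0.02 and *IGO1*, a PP2A inhibitor gene, at 0.67 ± 0.27.

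The list for spindle position control and the spindle pole body scaffold had 10 tested genes and a median of -0.22 (-0.25 on array 1 and -0.05 on array 2). *ELM1*, the kinase gene that activates the checkpoint kinase Kin4, stood at -0.72 ± 0.09. *CLA4*, a kinase gene upstream of Lte1, stood at -0.20 on array 1 and -3.78 on array 2, so its mean of -1.99 rests on array 2. *KEL2*, of a kelch protein that binds Lte1, stood at -1.33 ± 0.80 and was called lower after MAD scaling but not after quantile normalization. Its paralog *KEL1* stood at 0.47 ± 0.43. *RAS2*, a Ras GTPase gene, stood at 1.07 ± 0.52 and was called higher after both scalings. *GIC2*, a Cdc42 effector gene, stood at 0.38 ± 0.03.

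Cytokinesis effectors and septins, which act after the network, had 14 tested genes and a median of -0.52 (-0.31 on array 1 and -0.82 on array 2), with 9 negative and 3 positive on both arrays (33.9% and 34.7% of all genes). The lowest were the formin gene *BNI1* (-1.11 on array 1, -3.83 on array 2), the septin gene *CDC12* (-0.55 on array 1, -3.21 on array 2) and the chitin synthase gene *CHS3* (-0.69 on array 1, -1.65 on array 2). All 3 had the lower value on array 2. *BNI1*, *CHS3* and *BNI5*, the last named after its values were seen, were called lower after MAD scaling (2.3% of all genes), and 0 genes of the list were called after quantile normalization. The other formin gene, *BNR1*, stood at 0.61 ± 0.08, the septin kinase gene *GIN4* at 0.63 ± 0.19 and the cytokinesis gene *INN1* at 0.33 ± 0.40.

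The RAM network, a sister pathway built on the related kinase Cbk1 and its partner Mob2, gave little to compare. Only 2 of its 8 genes were tested, *SSD1* at -0.26 ± 0.17 and *HYM1*, named because the list was so short, with a mean of 0.00 and opposite signs on the arrays. *CBK1* and *MOB2* had no listed value.

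Chromosomal position was examined because a barcoded allele can disturb a neighbouring gene. Gene order was taken from the R64 assembly, counting protein-coding genes. The nearest measured neighbours of *DBF2* were *UTP22* at -0.02 ± 0.01 on one side and *DRN1* at 0.88 ± 0.09 on the other, and *PRP31*, next to *DBF2*, had no listed value. Neither neighbour came near the ratio of *DBF2*, but *DBF2* was chosen as the highest gene, so nothing is read from this gap. Within 10 genes on each side, 15 genes were measured, with a median of -0.02, a lowest mean of -0.33 and a highest of 2.37, which belonged to the ribosomal protein gene *RPL11B*, the 1 gene of the 15 at or above 1 on both arrays.

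**Figure D4:**
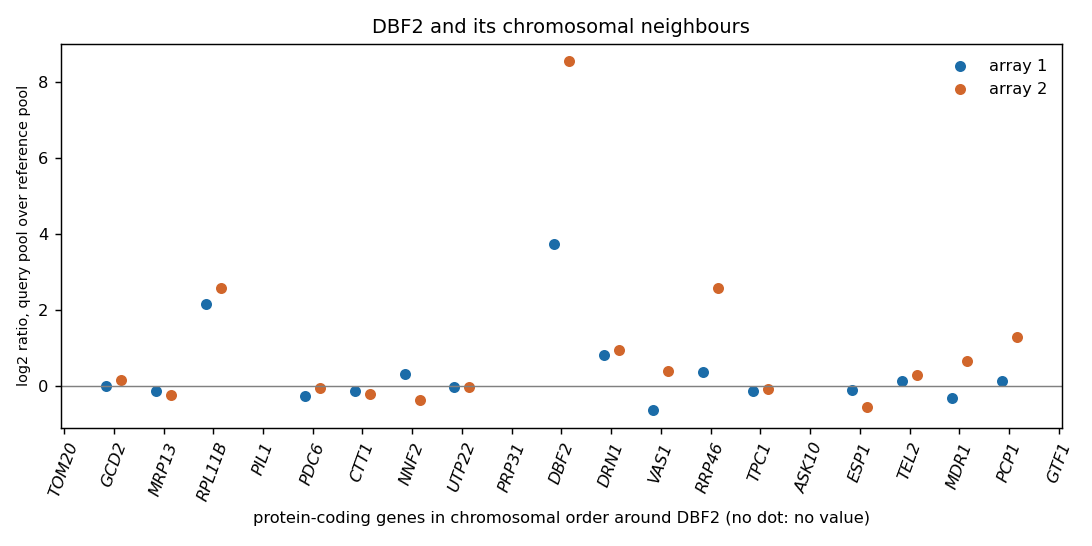
Log2 ratio (likely query pool over reference pool) on array 1 (blue) and array 2 (orange) for *DBF2* and the 10 protein-coding genes on each side in chromosomal order. Genes without a point had no listed value. *DBF2* stands at 3.75 and 8.55, while the nearest measured neighbours, *UTP22* and *DRN1*, have means of -0.02 and 0.88.

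Over all 10 members, the 20 nearest measured neighbours had a median of 0.02 and ranged from -0.46 (*SLM1*, beside *MOB1*) to 1.20 (*ADE1*, near *CDC15*), and 0 of them were at or beyond 1 in the same direction on both arrays, where all genes had 6.4% above and 2.03% below. The highest, *ADE1*, *PMT2*, *MFT1* and *DRN1* (0.88, beside *DBF2*), were above the upper quartile of all genes (0.35). *LTE1* was flanked by *MAK16* at -0.10 ± 0.08 and *PMT2* at 1.18 ± 0.73. *PMT2* was positive on both arrays and *MAK16* negative on both, so neither showed the change of sign seen at *LTE1*. *BUB2* lay between *STV1* (0.28 ± 0.13) and *AAC1* (0.25 ± 0.15), both positive on both arrays while *BUB2* was negative on both. *DBF20* lay between *RPC40* (-0.30 ± 0.69) and *MRD1* (-0.02 ± 0.45), and *CDC14* between *ECO1* (-0.09 ± 0.13) and *PTR3* (0.01 ± 0.01). *BFA1* had *RAD7* (0.02 ± 0.01) and *YJR056C* (0.10 ± 1.04) as its nearest measured neighbours, and *MOB1* had *PFK26* (0.35 ± 0.33) on its other side. For the members without a value, *PAU7* (0.14 ± 0.07) lay on the other side of *CDC15*, *ORC1* (0.02 ± 0.05) and *MFT1* (0.93 ± 0.36) were nearest to *TEM1*, and *YPT7* (-0.01 ± 0.09) and *MVP1* (-0.34 ± 0.57) were nearest to *CDC5*. Each of these 3 members had a measured gene directly on one side and a gene without a value directly on the other.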

How the data were processed

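The authors deposited a log ratio of both channels per probe and array, read here as log2 because its range (-4.79 to 3.91 on array 1, -6.36 to 9.40 on array 2) is too wide for log10; a natural log would multiply every value by a constant. Their normalization, direction and any filter on dim spots were not given in the sources used here. Deposited column medians were -0.06 and -0.27, and centring removed them. Platform symbols were updated through a RefSeq gene table of R64 and probes averaged per gene and array. The 148 genes within 100 kb of *PIH1* or *RSA1* were left out of the fit. limma 3.58.1 (R 4.3.3; intercept, eBayes, two-sided) was tested on simulated data. Python 3.11.15 with pandas 2.3.3 did the rest. Members and lists were chosen with earlier results of these data known. Named were all members, up to 3 highest and 3 lowest genes of the same sign on both arrays per list, nearest measured neighbours, and the 5 genes closest to *DBF2*. Genes in counts of 5 or fewer were named too. Alternatives covered centring, scaling, probe choice, log base, linked genes, robust eBayes and single arrays. Channel intensities were not analysed here, and the files gave no slide or scan date to use as a batch.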

Additional observations from a re-analysis of the deposited data

How the results depend on the processing

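*DBF2* stayed the highest gene by mean in every setting that kept the direction of the ratio and both arrays, and its mean lay between 5.70 (arrays brought to the same median absolute deviation, MAD scaling) and 8.88 (read as natural log); by single array it was 3.75 to 8.55. With the ratio turned, a setting chosen after seeing the data, *DBF2* was the lowest gene (-6.15), the median of the members 0.23, and 0 members at or above 1 and 1 at or below -1. The count of members at or above 1 was 1 in every setting with both arrays and 1 to 2 by single array, where *LTE1* joined on array 2 alone, and 0 members were at or below -1. The median of the members, -0.23, was -0.40 without centring, -0.25 after MAD scaling, -0.25 after quantile normalization, -0.17 with the probe nearest 0 and -0.33 read as natural log, and -0.23 to -0.21 by single array. limma called 0 genes in the other settings but 456 after MAD scaling and 434 after quantile normalization; both take the 1.81-fold difference in scale out of the spread between arrays, and how far this alone gives the calls was not tested. The 12 other members and list medians under 7 alternatives (natural log left out, since it cannot turn a sign) gave 84 values, of which 15 moved by over 1 SD between arrays, 9 of them without centring, which shifts all genes alike: *DBF20* to -0.40, *MOB1* to -0.42, *BUB2* to -0.51 and *CDC14* to -0.29 among them. The sign changed in 5, which were *LTE1* on array 1 alone (-0.74), *CDC14* with the probe nearest 0 (0.03), and the medians of the anaphase-promoting complex list (-0.06 without centring, -0.01 on array 1) and of the mitotic kinase list (-0.13 without centring). Read as natural log, *DBF20* (-0.33), *MOB1* (-0.36) and *BUB2* (-0.49) also moved by over 1 SD, with no change of sign. So did the medians of the FEAR list (-0.35) and the mitotic kinase list (0.05). No paired analysis was possible because the arrays form a single group. Signal over background was not analysed here.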

Other observations

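*DBF2*, the gene at the head of the set, and *CDH1*, *SIC1* and *CLB2* can be set side by side, as values chosen after they were seen. *CDH1* was the highest gene of the anaphase-promoting complex list, whose median was 0.10. *SIC1* and *CLB2* were the highest and lowest genes of the mitotic kinase list, whose median was 0.04. On array 1 the ratios were 3.75 for *DBF2*, 2.01 for *CDH1*, 1.17 for *SIC1* and -1.47 for *CLB2*, and on array 2 they were 8.55, 1.47, 1.51 and -3.35. *CDH1* was the 1 gene of these 4 with the value nearer to 0 on array 2, the array with the wider scale. Tested paralog pairs of the network and its lists, also picked after their values were seen, went both ways. Signs of the means differed in *DBF2* and *DBF20* (6.15 and -0.23), *KEL2* and *KEL1* (-1.33 and 0.47) and the formin genes *BNI1* and *BNR1* (-2.47 and 0.61). They were equal in *CLB2* and *CLB1* (-2.41 and -0.61), *PPH21* and *PPH22* (-0.71 and -0.35), *ZDS1* and *ZDS2* (-0.93 and -0.39), *IGO1* and *IGO2* (0.67 and 0.17) and *SPO12* and *BNS1* (-0.24 and -0.01). However, *IGO2* (0.40 on array 1, -0.06 on array 2), *SPO12* (0.06, -0.54) and *BNS1* (-0.21, 0.19) each changed sign between the arrays. *SPO12* and *BNS1* had opposite signs on each array, so no shared direction can be given for that pair.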
